A study of Mus musculus with 6 samples.

Results

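Microtubules are hollow polymers of paired alpha and beta tubulin, and each of these proteins is made from several genes, called isotypes, that differ mainly in the acidic tail at the end of the protein. Gamma tubulin, held in a ring by gamma-tubulin complex proteins, starts new microtubules, while enzymes of the tubulin tyrosine ligase-like (Ttll) family add glutamates or glycines to the tails and enzymes of the Agbl family remove the glutamates. Tuft cells are chemosensory cells of the intestinal epithelium with a brush of long, stiff microvilli, prominent microtubule bundles beneath it and the microtubule-associated kinase Dclk1 as a widely used marker. Every gene in the expression table with a symbol beginning Tuba, Tubb, Tubg, Tube or Tubd, or with Ttll or Agbl and a number, was taken, which gave 44 of 23420 genes. They were 8 alpha tubulin genes, 9 beta tubulin genes of which 1 is a pseudogene, 2 gamma tubulin genes, 1 delta and 1 epsilon tubulin gene, 5 gamma-tubulin complex protein genes that share the Tubg prefix, 13 Ttll genes and 5 Agbl genes.

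The RNA came from tuft cells of the ileum. There was 1 group with 6 libraries, and the labels call each of them a mouse replicate. All mice were Gfi1b-eGFP/+ on the C57BL/6J background, without treatment as far as the labels say, and carried green fluorescent protein at the locus of Gfi1b, a transcription factor gene expressed in tuft cells within the epithelium. The sort took live cells that carried GFP and EpCam and lacked CD45, a marker of blood-derived cells. Values are in TPM, a standard unit for the share of all transcripts estimated to come from a gene after correction for transcript length, so they can be compared between genes of a library but keep no sequencing depth. For a gene listed at 0, the limit of detection is therefore unknown.

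The labelled cell type was checked against marker lists. Of 14 tuft cell genes, 13 were in the table. All 13 were above 0 in every library, against 47.2% of all genes, with a summed level of 7144 to 12055 TPM. Genes of other epithelial cells were present as well, at 4089 to 26976 TPM for 7 Paneth cell genes, 2551 to 5638 TPM for 8 enterocyte genes and 1053 to 5118 TPM for 7 goblet cell genes. The Paneth sum was above the tuft sum in replicates 4, 5 and 6 (26976 against 8675, 16356 against 7158 and 8724 against 7144 TPM). It was below the tuft sum in replicates 1 to 3. These sums depend on the genes listed and give no cell fractions. The ribosomal RNA precursor Rn45s took 23.1% to 32.6% of TPM, and the transcript Gm20594 stood at 15588 to 21283 TPM in replicates 1 to 3 and at 51805 to 56441 TPM in replicates 4 to 6. Where a level in this bulk RNA is lower, fewer expressing cells and less RNA per cell cannot be told apart.

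The tubulin genes were led by 1 alpha isotype and 1 beta isotype, Tuba1a at 1367 ± 341 TPM and Tubb4b at 1176 ± 164 TPM (SD, n = 6), which ranked 58 and 71 among all genes. Of the 44 genes, 29 (65.9%) were above 0 in every library, against 47.2% of all genes in the table. A mean of at least 1 TPM was reached by 28 (63.6%), against 51.4% of all genes, and a mean of at least 10 TPM by 14 (31.8%), against 29.8%, so at the higher threshold the share was close to that of the table as a whole. Another 5 (11.4%) were listed at 0 in every library, against 32.9% of all genes, namely Tuba3a, Tuba3b, Ttll6, Agbl4 and the pseudogene Tubb2a-ps2. Alpha and beta tubulin together made up 0.338% ± 0.0557 of all TPM (SD, n = 6).

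**Figure D1:**
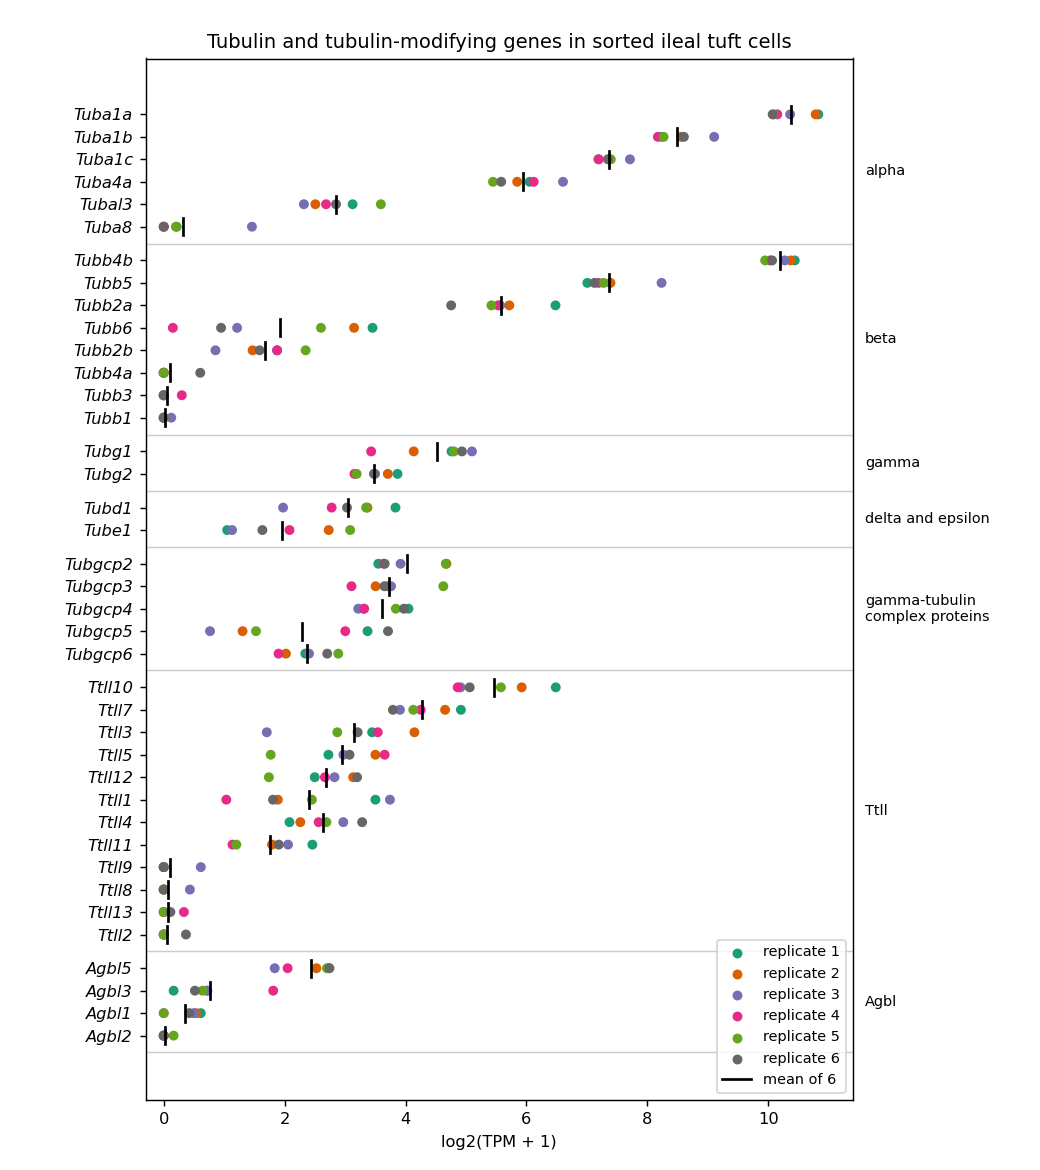
Level of each tubulin and tubulin-modifying gene in sorted ileal tuft cells, as log2(TPM + 1) on the horizontal axis, with 1 point for each of 6 libraries and a vertical bar at their mean. The 5 genes listed at 0 in every library are left out, and Tuba1a and Tubb4b stand furthest to the right, above all other members in every library.

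Alpha tubulin came almost wholly from 3 neighbouring genes. Tuba1a, the isotype best known from developing neurons, was at 1819, 1765, 1316, 1136, 1089 and 1077 TPM in replicates 1 to 6. Tuba1b, a broadly expressed isotype, was at 299.6, 376, 550.1, 288, 308 and 388.5 TPM, and Tuba1c at 145, 165, 209, 145, 167 and 162 TPM. The ranges of these 3 genes did not overlap, and while Tuba1a was highest in replicates 1 and 2, Tuba1b and Tuba1c were both highest in replicate 3. Tuba4a followed at 65.4, 56.6, 96.4, 68.6, 42.6 and 46.9 TPM, also highest in replicate 3. Tubal3 was far lower at 6.52 ± 2.57 TPM (SD, n = 6) and was above 0 in every library. Tuba8 reached 1.75 TPM in replicate 3, was near 0 in replicates 1 and 5 (0.16 and 0.15 TPM) and was listed at 0 elsewhere. Tuba3a and Tuba3b, isotypes known from testis, were the 2 alpha genes listed at 0 throughout.

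Summed over the 8 genes, alpha tubulin was at 2337, 2368, 2177, 1643, 1618 and 1681 TPM in replicates 1 to 6. Replicates 1 to 3 all lay above replicates 4 to 6, the same sets that differed in Gm20594, and they stayed apart when libraries were rescaled by median-of-ratios factors (1976 to 2175 against 1659 to 1769 TPM) or after Rn45s and Gm20594 were removed (2889 to 3237 against 2417 to 2704 TPM). No label sets these libraries apart, and the part of whatever differs between them in the alpha level was not tested. Shares of a class do not depend on such scaling. Tuba1a held 68.9% ± 6.46 of alpha tubulin TPM (SD, n = 6), with the lowest share of 60.4% in replicate 3 and the highest of 77.8% in replicate 1. Tuba1b held 18.9% ± 4.61, Tuba1c 8.60% ± 1.65 and Tuba4a 3.20% ± 0.866, and the first 3 genes together held 96.4% ± 0.837.

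Tuba1a, Tuba1b and Tuba1c lie on chromosome 15 of GRCm38, at 98949837 to 98953703 and 98931425 to 98934565 on the minus strand and at 99029891 to 99038110 on the plus strand, each with 4 exons in the GENCODE M21 annotation. They are near-identical. The coding sequences of Tuba1a and Tuba1b match at 98.3% of bases and encode 2 different residues among 451. Of all 50-base windows of their transcripts, 56.2% in Tuba1a, 65.2% in Tuba1b and 59.9% in Tuba1c also occur in another gene of the table, and the quantification divided reads of such windows between the genes by estimation. The single values of the 3 genes are therefore less certain than their sum. Tuba4a (chromosome 1, 75214228 to 75219865, minus strand) has no window of this kind, but 1379 bases of its exons overlap Stk16 on the opposite strand, a gene at 41.9 TPM, and no source used here says whether the counting used strand.

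In the tyrosination cycle, a final tyrosine of the alpha tail is cut off and put back. The coding sequences of Tuba4a and Tubal3 end in a codon for another residue. Their last 20 codons are shown without the stop codon and with the last codon in capitals. The sequences are from the GRCm38 genome with GENCODE M21 coding exons, the assembly of the mm10 transcriptome but not its gene models, at chr1:75215625-75215684 (minus strand) and chr13:3933500-3933559 (plus strand).
Tuba4a: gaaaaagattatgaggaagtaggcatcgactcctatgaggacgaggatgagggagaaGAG
Tubal3: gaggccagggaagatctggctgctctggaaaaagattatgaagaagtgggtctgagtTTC
The coding sequence of Tuba4a ends in a glutamate codon and that of Tubal3 in a phenylalanine codon. Tuba8, not shown, also ends in a phenylalanine codon. Whether the protein of Tuba4a takes part in the cycle was not measured. Glutamate codons numbered 8 of 20 in Tuba4a and 5 of 20 in Tubal3. The window is fixed at 20 codons and can reach beyond the acidic tail, so these counts are not counts of sites for side chains.

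Among beta tubulin genes, Tubb4b, an isotype expressed in many tissues and abundant in ciliated cells, was at 1388, 1325, 1236, 1047, 988 and 1070 TPM in replicates 1 to 6. Tubb5, the isotype typical of dividing and many other cells, was at 128, 167, 301, 145, 154 and 139 TPM. Tubb2a, best known from neurons, was at 88.4, 51.6, 46.4, 45.2, 41.8 and 26.0 TPM. None of these ranges overlapped, and the library with the highest value was replicate 1 for Tubb4b and Tubb2a but replicate 3 for Tubb5. Tubb6 varied most among the betas above 0 in every library, from 0.11 TPM in replicate 4 to 9.96 TPM in replicate 1. Tubb2b was at 2.67, 1.77, 0.81, 2.67, 4.09 and 2.00 TPM. Tubb6 and Tubb2b did not differ beyond their spread, by 0.25 ± 1.30 on the log2(TPM + 1) scale (SD, n = 6), with Tubb6 higher in 4 of 6 libraries. Another 3 isotypes were each above 0 in a single library. Tubb3, the neuronal isotype, was above 0 in replicate 4 alone at 0.23 TPM, Tubb1, the isotype of megakaryocytes and platelets, in replicate 3 alone at 0.09 TPM, and Tubb4a, an isotype of the brain, in replicate 6 alone at 0.52 TPM.

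Tubb4b held 83.8% ± 3.12 of beta tubulin TPM (SD, n = 6), Tubb5 12.2% ± 3.69 and Tubb2a 3.49% ± 1.11. The share of Tubb5 was lowest in replicate 1 at 7.90% and highest in replicate 3 at 19.0%, where that of Tubb4b was lowest at 78.0%. The beta total was 1617, 1553, 1586, 1240, 1193 and 1238 TPM in replicates 1 to 6. As for alpha tubulin, replicates 1 to 3 lay above replicates 4 to 6, and did so after both rescalings. The ratio of the alpha total to the beta total was steadier than either total, at 1.40 ± 0.0742 (SD, n = 6) with a range of 1.32 to 1.52. A factor common to all genes of a library cancels in such a ratio, which by itself makes it steadier than the totals.

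**Figure D2:**
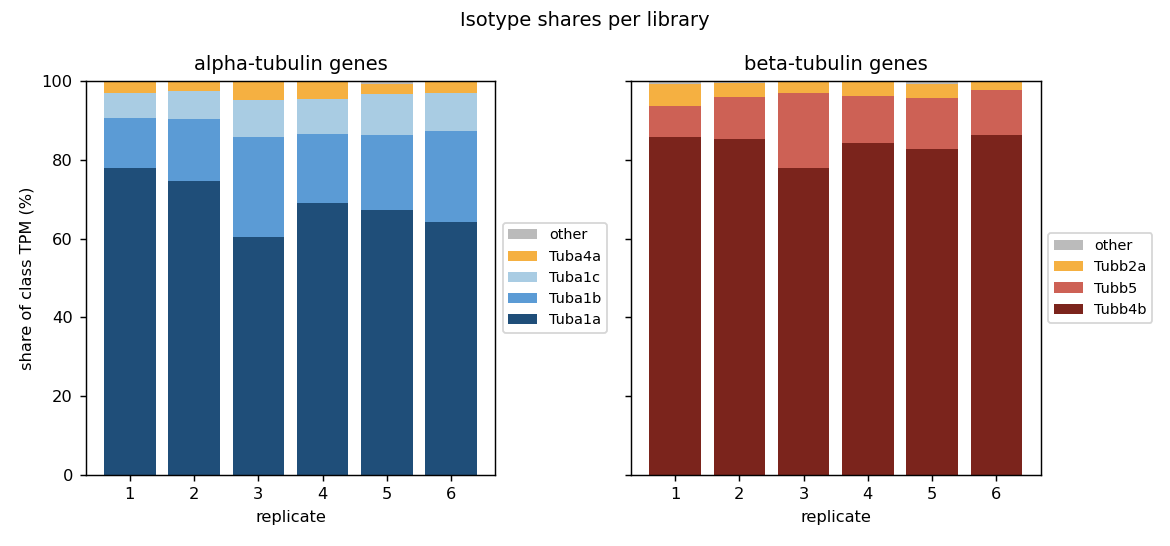
Share of each isotype in the summed TPM of the alpha tubulin genes (left) and the beta tubulin genes (right), in percent, with 1 bar per library. Tuba1a and Tubb4b make up most of every bar, and in replicate 3 the shares of Tuba1b (25.3%) and Tubb5 (19.0%) are larger than in the other libraries.

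Tubb4b lies on chromosome 2 at 25222160 to 25224702 on the minus strand, and Tubb5 on chromosome 17 at 35833921 to 35838306 on the minus strand. Unlike the leading alpha genes, they share few or no 50-base windows with other genes of the table, 0% for Tubb4b and 0.115% for Tubb5, at a window length set without knowledge of the read length. Exons of Tubb4b overlap those of Fam166a by 121 bases on the opposite strand, and Fam166a was at 1.53 TPM. Tubb2a (chromosome 13, 34074274 to 34078007, minus strand) and Tubb2b (chromosome 13, 34126748 to 34130466, minus strand) share 49.6% and 39.3% of their windows with other genes, mostly with each other. Because beta tails carry the glutamates that Ttll enzymes extend, the last 20 codons of the 3 leading beta genes and of Tubb2b are shown with the glutamate codons in capitals, at chr2:25222311-25222370, chr17:35834985-35835044, chr13:34074471-34074530 and chr13:34127474-34127533, all on the minus strand of GRCm38.
Tubb4b: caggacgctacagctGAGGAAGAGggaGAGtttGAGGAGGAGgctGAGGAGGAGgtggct
Tubb5: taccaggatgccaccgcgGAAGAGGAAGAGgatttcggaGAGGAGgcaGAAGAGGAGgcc
Tubb2a: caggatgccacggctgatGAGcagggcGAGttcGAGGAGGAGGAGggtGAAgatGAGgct
Tubb2b: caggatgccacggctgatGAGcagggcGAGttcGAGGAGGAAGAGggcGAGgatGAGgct
Tubb4b, the dominant beta gene, has 10 glutamate codons among these 20, Tubb5 has 9 and the remaining pair 8 each. The tails of Tubb2a and Tubb2b differ at 3 of 60 bases and at 0 of 20 encoded residues, while their levels lay far apart.

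Members were compared within each library in 5 pairs on the log2(TPM + 1) scale. The pairs were chosen with earlier results of these data known, so their p-values lend no support beyond the values themselves. The test was an exact permutation test, two-sided, that flips the sign of each library's difference. The smallest p that 6 libraries allow is 0.03125, and every pair reached it because all 6 libraries differed in the same direction. Tuba1a exceeded Tuba1b by 1.89 ± 0.49 on this log2 scale (SD, n = 6, higher in 6 of 6 libraries, exact permutation p = 0.03125, adjusted p = 0.03125 over the 5 pairs). The ratio of the TPM values ranged from 2.39 in replicate 3 to 6.07 in replicate 1. Tuba4a, whose coding sequence lacks a final tyrosine codon, lay below Tuba1b by a log2 difference of -2.55 ± 0.38. Tubb5 lay below Tubb4b by -2.82 ± 0.46, with Tubb4b from 4.11 times higher in replicate 3 to 10.9 times higher in replicate 1. Tubb2a exceeded its near-copy Tubb2b by 3.91 ± 0.71, a pair whose shared reads were divided by estimation. Tubg1 exceeded Tubg2 by 1.04 ± 0.60, the smallest of the 5 differences, with ratios of 1.24 to 3.30. These 4 pairs had the same exact permutation p and adjusted p of 0.03125 and the same 6 of 6 agreement in direction.

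The gamma tubulin genes, adjacent on chromosome 11 (101119938 to 101126419 for Tubg1 and 101155907 to 101161787 for Tubg2, plus strand), were both expressed. Tubg1, the form used by most cells to start microtubules, was at 26.1, 16.6, 33.3, 9.79, 26.9 and 29.6 TPM in replicates 1 to 6. Tubg2 was at 13.6, 12.1, 10.3, 7.91, 8.14 and 10.1 TPM. Each was lowest in replicate 4, and their ranges overlapped although Tubg1 was higher within each library. They share 13.9% and 14.3% of their windows.

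Among the gamma-tubulin complex proteins, Tubgcp2 and Tubgcp3 form the small complex with gamma tubulin, and Tubgcp4, Tubgcp5 and Tubgcp6 complete the ring. Tubgcp2 was at 10.7, 24.6, 14.1, 11.5, 24.4 and 11.6 TPM in replicates 1 to 6, and Tubgcp3 at 12.1, 10.4, 12.6, 7.61, 23.7 and 11.6 TPM. Tubgcp4 was at 15.6, 8.90, 8.30, 8.96, 13.3 and 14.7 TPM. Among these 3, neighbours in this order did not differ beyond their spread, with a log2 difference of 0.29 ± 0.49 between Tubgcp2 and Tubgcp3 and of 0.11 ± 0.48 between Tubgcp3 and Tubgcp4 (SD, n = 6). Tubgcp4 exceeded Tubgcp5, the next below it, by 1.34 ± 1.03 and was higher in 6 of 6 libraries. Tubgcp5 averaged 5.42 TPM with a range of 0.70 to 12.1 TPM, and Tubgcp6 4.35 TPM with a range of 2.73 to 6.40 TPM. Exons of Tubgcp4 overlap 2130 bases of Trp53bp1 on the opposite strand, a gene at 15.0 TPM, and those of Tubgcp2 overlap 216 bases of Zfp511, also on the opposite strand, at 16.2 TPM. A list held 10 other genes for ring subunits and proteins that recruit or anchor the ring. Of these, 9 had a mean of at least 1 TPM, against 51.4% of all genes. They were led by Pde4dip at 41.9 ± 5.91, Akap9 at 29.1 ± 5.31 and Mzt2 at 23.7 ± 13.6 TPM (SD, n = 6). Pde4dip and Akap9 encode anchors of gamma tubulin at the Golgi and centrosome, and Mzt2 encodes a small ring subunit.

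Delta and epsilon tubulin, which act in the centriole, were low but above 0 in every library. Tubd1 was at 13.3, 9.34, 2.93, 5.86, 9.18 and 7.18 TPM in replicates 1 to 6. Tube1 averaged 3.45 TPM with a range of 1.07 to 7.48 TPM. Tubd1 was the higher of the pair in all 6 libraries, by 1.11 ± 0.90 on the log2 scale (SD, n = 6), while the ranges overlapped.

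Of the 13 Ttll genes, 8 (61.5%) were above 0 in every library, against 47.2% of all genes, and the same number had a mean of at least 1 TPM, against 51.4% of all genes. Their summed level was 103 ± 31.8 TPM (SD, n = 6). The family was led by Ttll10, which lengthens glycine chains and lies on chromosome 4 at 156034840 to 156059414 on the minus strand. Ttll10 was at 88.6, 59.6, 29.1, 28.1, 46.8 and 32.4 TPM in replicates 1 to 6, highest in replicates 1 and 2, and held 44.6% ± 9.67 of all Ttll TPM. Ttll7, an enzyme that adds glutamates with a preference for beta tubulin (chromosome 3, 146852367 to 146984009, plus strand), was at 29.2, 24.2, 14.0, 18.1, 16.5 and 12.9 TPM. Within each library Ttll10 exceeded Ttll7, by 1.56 to 3.04 times. Neither gene shares a 50-base window with another gene of the table or overlaps another protein-coding gene's exons.

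The glycine pathway needs a starting enzyme before Ttll10 can act on a tail. The starters are Ttll3 and Ttll8. Ttll3 was at 9.91, 16.7, 2.26, 10.6, 6.32 and 8.24 TPM in replicates 1 to 6, and Ttll8 was listed at 0 in all but replicate 3, where it was at 0.35 TPM. Ttll10 was 2.64 to 12.9 times higher than Ttll3 within libraries, and the largest ratio was in replicate 3, where Ttll3 was lowest. Exons of Ttll3 overlap those of Arpc4 by 283 bases on the same strand, and Arpc4 was at 104 TPM, and reads of that stretch were divided by estimation. Together the 3 glycine genes summed to 98.6, 76.4, 31.7, 38.7, 53.1 and 40.7 TPM, which was 53.4% ± 9.76 of Ttll TPM (SD, n = 6).

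Among the 8 glutamate-adding genes, Ttll7 was followed by Ttll5 (mean 7.37 TPM, range 2.41 to 11.6), Ttll1 (5.57, range 1.05 to 12.4), Ttll4 (5.49, range 3.23 to 8.73) and Ttll11 (2.56, range 1.20 to 4.50). Ttll4 and Ttll5 start side chains, Ttll11 lengthens them, and Ttll1 is the catalytic subunit of a larger complex. Ttll9 was above 0 in replicate 3 alone at 0.53 TPM, Ttll13 in replicates 4 and 6 at 0.26 and 0.08 TPM, and Ttll6, a lengthening enzyme known from cilia, was listed at 0 throughout. Of the remaining family members, Ttll12 averaged 5.73 TPM with a range of 2.34 to 8.18 TPM, and Ttll2 was above 0 in replicate 6 alone at 0.29 TPM. From Ttll3 down to Ttll4 the order was not resolved. The log2 differences between Ttll3 and Ttll5, Ttll5 and Ttll12, Ttll12 and Ttll1, and Ttll1 and Ttll4 were each smaller than 1 SD over the 6 libraries. Ttll4 exceeded Ttll11, the next below it, by 0.88 ± 0.73 on the log2(TPM + 1) scale (SD, n = 6) and was higher in 5 of 6 libraries. Summed glutamate-adding TPM was 52.9, 43.5, 43.8, 37.1, 30.1 and 34.3 in replicates 1 to 6. The ratio of the glycine to the glutamate sum was 1.39 ± 0.470 (SD, n = 6), above 1 in 5 libraries and 0.724 in replicate 3.

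The partners of Ttll1 in its complex were measured as well. Tpgs1, which localises the complex, was at 70.2, 58.5, 41.3, 24.5, 25.0 and 40.9 TPM in replicates 1 to 6, above Ttll1 in each library. Nicn1 averaged 10.6 TPM, Tpgs2 5.27 TPM and 1110051M20Rik, the table's name for Cstpp1, 4.31 TPM, all above 0 in every library. Lrrc49 was at 8.24, 0.39, 4.05, 1.63, 0 and 3.44 TPM.

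The Agbl genes were all low. Agbl5, which removes the glutamate at the branch point of a side chain, was at 5.64, 4.76, 2.57, 3.14, 5.50 and 5.69 TPM in replicates 1 to 6 (chromosome 5, 30888694 to 30906965, plus strand). It was the only 1 of the 5 (20%) with a mean of at least 1 TPM, against 51.4% of all genes. Its exons overlap those of Ost4 by 677 bases on the opposite strand, and Ost4 was at 257 TPM, so the level of Agbl5 depends on how the reads of that stretch were assigned. Agbl3 was at 0.12, 0.64, 0.65, 2.51, 0.56 and 0.43 TPM, highest in replicate 4. Agbl1 was at 0.53, 0.45 and 0.41 TPM in replicates 1 to 3 and at 0, 0 and 0.34 TPM in replicates 4 to 6, Agbl2 was above 0 in replicate 5 alone at 0.12 TPM, and Agbl4 was listed at 0. Agtpbp1, the related enzyme outside the Agbl symbols that shortens glutamate chains, averaged 1.54 TPM with a range of 0.24 to 4.61 TPM. The 8 glutamate-adding genes summed to 6.20 ± 2.66 times the level of the 6 glutamate-removing genes (SD, n = 6), with the lowest ratio of 3.24 in replicate 5 and the highest of 11.0 in replicate 3. These are RNA sums and carry no information on enzyme activity.

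**Figure D3:**
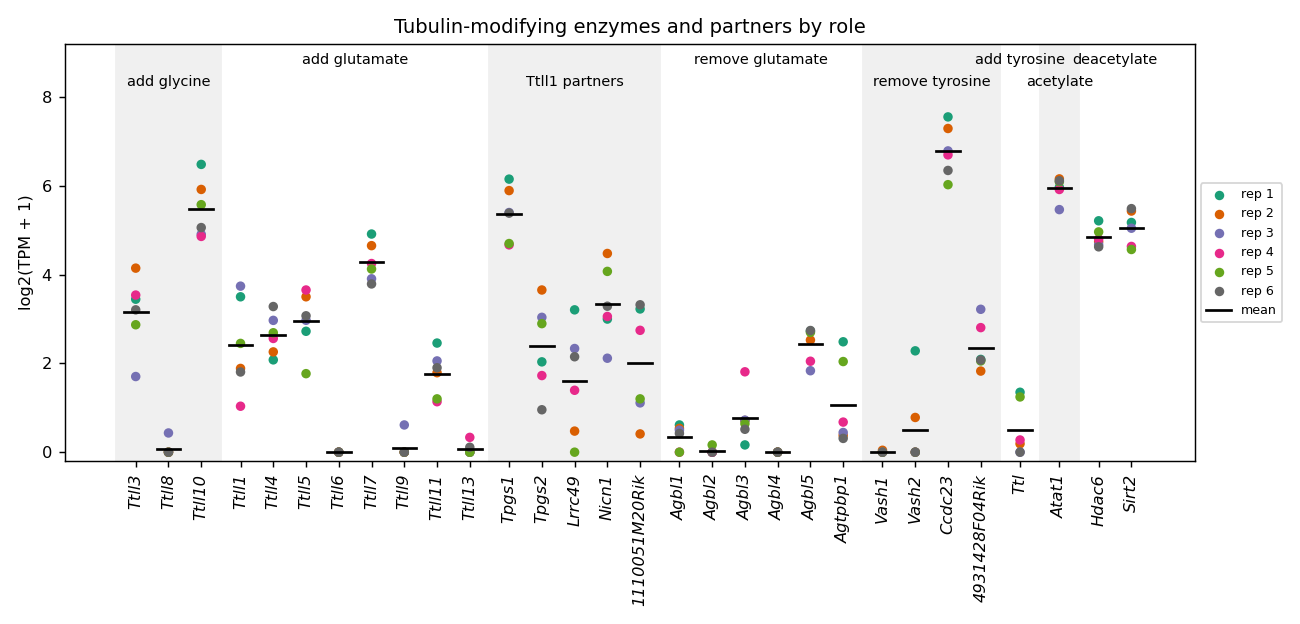
Level of tubulin-modifying enzymes and their partners, grouped by the change they make to tubulin, as log2(TPM + 1) with 1 point per library and a bar at the mean of 6. Ttll10 and Ttll7 stand above the other Ttll genes, the glutamate-removing genes lie low, and of the tyrosine-removing group Ccdc23 is high in every library, while Vash1 is at or near 0 and Vash2 is at 0 in 4 libraries and at 3.87 TPM in replicate 1.

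The enzymes of the tyrosination cycle were low. Ttl, the ligase that puts the tyrosine back, was at 1.55, 0.14, 0, 0.21, 1.37 and 0 TPM in replicates 1 to 6. Of the carboxypeptidases that cut it off, Vash1 was above 0 in replicate 2 alone at 0.03 TPM, and Vash2 was at 3.87 and 0.72 TPM in replicates 1 and 2 and listed at 0 in the others. Their small partner Svbp, listed as Ccdc23, was abundant in every library at 187, 156, 109.7, 103, 64.3 and 80.6 TPM. A further tyrosine-removing enzyme, encoded by 4931428F04Rik, averaged 4.42 TPM with a range of 2.55 to 8.32 TPM. Of the 5 genes of this list in the table, 2 had a mean of at least 1 TPM, against 51.4% of all genes.

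Acetylation, a mark laid on alpha tubulin inside the microtubule, is used to stain tuft cells. Atat1, the acetylating enzyme, was at 61.6, 70.5, 43.2, 59.6, 67.4 and 68.4 TPM in replicates 1 to 6, lowest in replicate 3. Of the deacetylases, Hdac6 averaged 27.9 ± 4.63 TPM and Sirt2 33.3 ± 8.93 TPM (SD, n = 6). All 3 genes were above 0 in every library, against 47.2% of all genes, and Atat1 was above each deacetylase in all 6.

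Genes that fold, bind and cut microtubules were taken from lists for comparison, and counts at a mean of 1 TPM or more stand against 51.4% of all genes. All 7 folding cofactor genes had a mean of 1 TPM or more, led by Tbca at 157, Tbcb at 97.9 and Arl2 at 37.3 TPM, which encode proteins that handle newly made tubulin. Among 15 genes for stabilising microtubule-associated proteins, 8 reached 1 TPM, led by Dclk1 at 628, Map4 at 29.6 and Map7 at 26.2 TPM, and Map7d2 was listed at 0. All 11 genes for proteins of microtubule ends reached 1 TPM, with Camsap3, which binds minus ends in epithelia, at 36.2 TPM, and the plus end proteins Mapre2 and Mapre1 at 26.8 and 24.1 TPM. Of 12 genes for destabilising and severing proteins, 5 reached 1 TPM, a list too short to set this share apart from that of all genes. Stmn1, which binds free tubulin, was at 70.5 TPM and the katanin subunit Katna1 at 35.0 TPM, while Stmn2, Stmn3 and Stmn4 were listed at 0.

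The members varied between libraries in more than 1 pattern. Among the 14 whose mean was 10 TPM or more, the median coefficient of variation was 31.9%, against 31.0% over the 6986 genes of the table at that level. Tuba1a, Tubb4b, Tubb2a, Tubg2, Ttll10 and Ttll7 were highest in replicate 1, and so was Tubgcp4 before rescaling. The tuft cell list was also highest there, at 12055, 10927, 7190, 8675, 7158 and 7144 TPM in replicates 1 to 6. Tuba1b, Tuba1c, Tuba4a and Tubb5 were highest in replicate 3, and so was Tubg1 before rescaling. The sum of a list of 10 genes of dividing cells was highest in the same library, at 131, 177, 475.7, 150.3, 198 and 246 TPM. Within that list, Mki67 was highest in replicate 5 (27.1 against 16.9 TPM in replicate 3) and Bub1 in replicate 1 (8.32 against 6.32 TPM). All other genes of the list were highest in replicate 3. Of the 10 genes, 9 were above 0 in every library, against 47.2% of all genes. Of the 14 members, 11 kept the library of their highest value under both rescalings, and Tubg1, Tubgcp2 and Tubgcp4 did not. The part of dividing cells, and of differences in tuft cell content between sorts, in these levels was not tested.

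**Figure D4:**
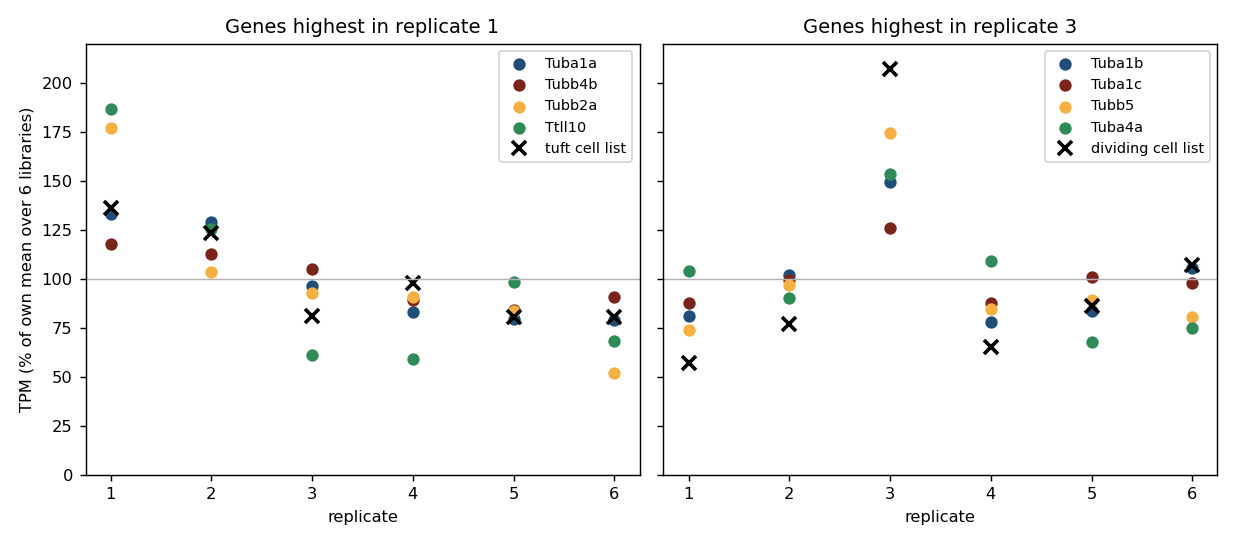
TPM per library as a percentage of the gene's or list's own mean over 6 libraries, for members highest in replicate 1 with the summed tuft cell list (left, crosses) and members highest in replicate 3 with the summed dividing cell list (right, crosses). The groups were formed from these values. Tubb5 stands at 175% of its mean in replicate 3, where the dividing cell list stands at 207%.

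Cell types whose tubulins are well known were checked by their own markers. Of 10 ciliated cell genes, 6 were in the table, and Foxj1, Dnaic1, Tekt1 and Ccdc39 were listed at 0 in every library, with 1.40 to 21.2 TPM for the whole list, mainly from Rsph1. Of 6 neuronal genes, Elavl4, Stmn2 and Rbfox3 were listed at 0 and the sum was 0.12 to 15.8 TPM, mainly from Nefl and Prph, which were each above 0 in 5 of 6 libraries. Of 6 megakaryocyte and platelet genes, Ppbp, Gp9 and Gp5 were listed at 0 and the sum was 1.34 to 13.0 TPM, mainly from Gp1bb. The 8 enterocyte genes summed to 2551 to 5638 TPM, the 9 enteroendocrine genes to 10.4 to 128 TPM, the 6 crypt stem cell genes to 336 to 813 TPM and the T cell genes to 89.3 to 176 TPM. The T cell sum came mainly from Ptprc, the gene for CD45, with a mean of 112 TPM. Cd3e, Cd3g, Cd8a and Cd2 had means of 4.38, 6.95, 2.83 and 0.0267 TPM. The sort took CD45-negative cells, and which cells the Ptprc RNA came from was not tested. Levels of the members in those other cell types were not measured here, and their part in the tubulin levels was not tested.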

How the data were processed

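RNA of sorted ileal tuft cells was sequenced in 6 libraries of 1 group. The authors made the libraries by a modified SMART-Seq2 protocol, which copies and amplifies polyadenylated RNA along its length, and Nextera XT. For each sample the labels list this protocol, a 3' polyA one and a droplet-based one, while the methods describe the first alone. Paired-end reads were mapped by the authors to the UCSC mm10 transcriptome with Bowtie, allowing 1 mismatch, and the TPM values they deposited came from RSEM, which divides reads that align to several transcripts by estimated shares. No source used here gives the strand setting or the read length. The methods name DESeq2 for differential expression, which was not used here, and TopHat appears in the submitters' processing notes with no role given. Rn45s and Gm20594 take shares of TPM that differ between libraries, which lowers the values of all other genes by different amounts.

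TPM sums to 1000000 in each library and keeps no read number, so depth is unknown and no count test, counting interval or detection limit was computed. Columns were matched to replicates by their numbers. The labels number the libraries as mouse replicates and the paper calls the samples independent. Whether each came from 1 mouse or a pool is not stated there. The p-values, all at the smallest value possible, reflect that the 6 libraries differed in the same direction and not how far they spread. The members were found by their symbols. The members, the 5 pairs, the pathway and marker lists and the rule for named genes were chosen with earlier results of these data known. The rule accounts for every member and gives the value in every library for members whose mean is 10 TPM or more, the leading member of each class and the genes of the 5 pairs. Others are given by mean and range, or named as listed at 0. Of each pathway list the 3 most abundant genes are named, and all genes of the tyrosination, acetylation and glutamylation lists. Where fewer are named, the others are not reported here. The values printed for Ttll3, Tpgs1, Agbl3 and other genes beyond that rule were chosen after they had been seen.

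Within each library, genes of a pair were compared on log2(TPM + 1), with a pseudocount of 1, by an exact permutation test of the sign of the differences (two-sided, 64 sign assignments), adjusted by the Benjamini-Hochberg method over 5 pairs. Sums, shares and neighbours in the order of levels were described without a test. Alternatives were pseudocounts of 0.1 and 0.01, setting values under 0.1 TPM to 0, median-of-ratios rescaling, rescaling without Rn45s and Gm20594, an exact Mann-Whitney test over 924 assignments, each library left out, replicates 1 to 3 and 4 to 6 apart, and other thresholds for counting members. The alternatives for the mean of each member and for the library of its highest value were chosen after the data were seen. Positions, overlaps, coding tails and shared 50-base windows come from GENCODE M21 on GRCm38, in which all 44 symbols were found. Ccdc23, 1110051M20Rik and 4931428F04Rik were matched to their listed enzymes or partners through RefSeq synonyms. The authors' gene models were not used here. The tests and rescaling were tested on simulated data. Python 3.11.15 was used with numpy 2.4.6, pandas 2.3.3, scipy 1.17.1, matplotlib 3.10.9 and Biopython 1.88.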

Additional observations from a re-analysis of the deposited data

Results flagged for a closer look

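Among 62 values screened across the 6 libraries, 15 had 1 library whose gap to the next exceeded the 95% critical value of Dixon's test for 6 values. For normally distributed values about 1 in 20 is flagged by chance, or 3.1 of 62. TPM values near 0 need not have that shape, and the sums, shares and pair differences reuse values of members. The number that chance would flag here is therefore not known. Of the 15, 8 were above 0 in the flagged library alone, which such a test always picks out. Replicate 3 was the library concerned in 6 of the 15.

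In replicate 3, Tubb5 was at 300.6 TPM with the next library at 167 TPM, and its mean of 172 TPM was 147 TPM without that library. Tuba1c was at 209 TPM there, with the next at 167 TPM and a mean of 166 TPM that became 157 TPM without it. Tuba8 was at 1.75 TPM in replicate 3 with the next at 0.16 TPM, so that its mean over the other libraries was 0.062 TPM, and Ttll9, Ttll8 and Tubb1 were above 0 there alone, at 0.53, 0.35 and 0.09 TPM. The sum of the dividing cell genes was also highest in this library, at 475.7 TPM, though not every gene of that list was. The part of dividing cells in these values was not tested.

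In replicate 4, Agbl3 was at 2.51 TPM, and its mean fell from 0.818 to 0.48 TPM without that library. Ttll13 was at 0.26 and Tubb3 at 0.23 TPM in the same library. Tubgcp3 was at 23.7 TPM in replicate 5 with the next at 12.6 TPM, and Agbl2 at 0.12 TPM. Replicate 6 held Tubb4a at 0.52 and Ttll2 at 0.29 TPM. Of the tyrosine-removing enzymes, Vash2 was at 3.87 TPM in replicate 1 and Vash1 at 0.03 TPM in replicate 2.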

How the results depend on the processing

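The 5 pair differences kept their direction under every alternative run, as they had to. All 6 libraries shared the sign in each pair, and none of the alternatives reverses the order of a pair within a library. With 5 libraries the smallest exact permutation p is 0.0625 and with 3 it is 0.25, so leaving libraries out ends the call in every pair by construction. Leaving out each library in turn, Tuba1a minus Tuba1b lay between 1.75 and 2.02 on the log2 scale, Tuba4a minus Tuba1b between -2.65 and -2.45, Tubb5 minus Tubb4b between -2.97 and -2.69, Tubb2a minus Tubb2b between 3.75 and 4.08, and Tubg1 minus Tubg2 between 0.93 and 1.20. In the same order the differences were 2.03, -2.46, -2.82, 4.52 and 0.98 in replicates 1 to 3 alone, and 1.75, -2.63, -2.82, 3.30 and 1.11 in replicates 4 to 6 alone. The pseudocounts, the filter on low values and both rescalings kept all 5 calls, which follows from the same fixed signs. The exact Mann-Whitney test, which ignores the pairing within libraries, also kept all 5 calls.

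Without Rn45s and Gm20594 the alpha total rose to 2843 TPM and the beta total to 2030.4 TPM, by construction, and the means of 20 of 39 members moved beyond 1 SD, against 0 under median-of-ratios factors. The counts of 29 and 28 members held when any library was left out. The means of Agbl3, Tuba8, Ttll13 and the members above 0 in 1 library moved by over 1.5 times when their highest library was left out. No paired analysis was possible because there is 1 group and replicate numbers pair no samples between groups. Depth is unknown, so a gene listed at 0 may be absent or below what was sequenced.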
